A study of Mus musculus with 5 samples.

Results

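Megalin (Lrp2), cubilin (Cubn), amnionless (Amn), the clathrin adaptor disabled-2 (Dab2) and the chloride/proton exchanger ClC-5 (Clcn5) form the receptor-mediated endocytic apparatus by which the proximal tubule takes up filtered protein. The 5 genes were chosen by symbol in the deposited gene list, and each symbol matched 1 of the 27998 genes. They were followed through the proximal tubule segments, an injured tubule state and all 5 libraries of a mouse kidney study of ischaemia-reperfusion injury (IRI).

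Single nuclei were profiled by droplet sequencing of polyadenylated nuclear RNA. The libraries held GFP-positive nuclei without injury, GFP-positive nuclei at 64 h, 96 h and 28 d after IRI, and GFP-negative nuclei without injury, with 1 library per group. All animals were male mice of 10 to 12 weeks carrying Six2-TGC, Rosa26rtTA and pTRE-H2BeGFP, and all received doxycycline food (625 mg/kg) from shortly after birth. IRI was made by clamping both renal pedicles. Six2 is a gene of nephron progenitors, so the green fluorescent histone marks the epithelium that descends from them, and nuclei were sorted on DAPI and then on this label. The labels call the control animals uninjured while the protocol and design text speak of sham surgery, and both control libraries carry the same serum values, so they are not counted as separate animals. The labels do not say how many animals were pooled in a library.

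Megalin and cubilin are giant receptors of the brush border that bind albumin, vitamin carriers and many other filtered ligands. Amnionless carries cubilin to the cell surface, and Dab2 links the tail of megalin to the clathrin coat. ClC-5 sits in the early endosome, where it takes part in acidification, and its loss in humans causes Dent disease with protein in the urine.

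The genes lie on 4 chromosomes (GRCm38, GENCODE annotation). Lrp2 (ENSMUSG00000027070) spans chr2:69424340-69586065 on the minus strand, Cubn (ENSMUSG00000026726) spans chr2:13276338-13491813 on the minus strand, and Amn (ENSMUSG00000021278) spans chr12:111271095-111276426 on the plus strand. Dab2 (ENSMUSG00000022150) spans chr15:6299788-6440712 on the plus strand, and Clcn5 (ENSMUSG00000004317) spans chrX:7153810-7319358 on the minus strand. Amn is a compact gene of 5.33 kb, whereas the other members measure 141 to 215 kb. An antisense gene, Gm16311, overlaps Dab2 and held 324 UMIs in all kept nuclei, against 78013 for Dab2. Whether counting used the strand is not given in the sources used here, and without it the reads of this pair cannot be told apart.

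Promoters are shown for the receptors, whose levels followed each other most closely, for Amn, which went another way after injury, and for the Dab2 start that held a searched motif. Each runs from 250 bases before to 50 bases after a RefSeq transcript start on GRCm38.p6, written 5′ to 3′ on the strand of the gene, and capitals mark a match. Both strands were searched for GTTAAT, which is part of the site of the HNF1 transcription factors. They were also searched for CAAAGTCCA, a site of the HNF4 factors, and for the TATA box, written as TATAAA. None of these motifs contains another. A longer HNF1 site, which contains the shorter one, was also counted and occurred in 3 of 32851 windows. It was not found in any window of these genes.
Lrp2, chr2:69585980-69586279, minus strand: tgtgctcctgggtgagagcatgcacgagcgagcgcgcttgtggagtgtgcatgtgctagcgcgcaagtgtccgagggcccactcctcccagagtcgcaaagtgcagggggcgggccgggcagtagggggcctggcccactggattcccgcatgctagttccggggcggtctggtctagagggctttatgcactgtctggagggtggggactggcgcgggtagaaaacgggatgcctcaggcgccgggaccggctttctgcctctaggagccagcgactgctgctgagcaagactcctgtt
Cubn, chr2:13491827-13492126, minus strand: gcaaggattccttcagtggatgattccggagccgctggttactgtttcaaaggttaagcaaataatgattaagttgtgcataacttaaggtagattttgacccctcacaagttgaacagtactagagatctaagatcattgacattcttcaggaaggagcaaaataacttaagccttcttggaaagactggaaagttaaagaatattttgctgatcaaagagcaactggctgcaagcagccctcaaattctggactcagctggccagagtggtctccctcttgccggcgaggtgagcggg
Amn, chr12:111270846-111271145, plus strand: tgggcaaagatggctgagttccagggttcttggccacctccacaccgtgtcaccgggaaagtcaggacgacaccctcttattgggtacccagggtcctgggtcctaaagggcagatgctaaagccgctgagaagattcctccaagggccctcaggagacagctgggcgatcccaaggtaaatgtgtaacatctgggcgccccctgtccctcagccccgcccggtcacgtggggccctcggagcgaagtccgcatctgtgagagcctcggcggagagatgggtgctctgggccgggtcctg
Dab2 downstream start, chr15:6386498-6386797, plus strand: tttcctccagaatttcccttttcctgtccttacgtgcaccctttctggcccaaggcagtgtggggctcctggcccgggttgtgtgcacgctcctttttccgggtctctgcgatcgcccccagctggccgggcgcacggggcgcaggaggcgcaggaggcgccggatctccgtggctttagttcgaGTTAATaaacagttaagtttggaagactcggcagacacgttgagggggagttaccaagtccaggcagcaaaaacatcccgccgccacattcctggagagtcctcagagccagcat
No searched motif was found in the Lrp2, Cubn and Amn windows. The downstream Dab2 window held GTTAAT at base 186 of 300, and 7.10% of 32851 windows of this length held it. The upstream Dab2 window had no match, and of the Clcn5 windows 1 of 2 held TATAAA, which 13.6% of all windows held. The HNF4 site occurred in 0.475% of windows. A match is a description of letters and not a binding site.

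UMIs (unique molecular identifiers, each a captured RNA molecule) were summed over the nuclei of a class in a library and scaled to a total of 1000000 (CPM), so a level is a share of the captured RNA. The bracketed ranges are exact 95% intervals that cover counting error only, and with 1 library per group no difference between groups was tested. Of 16359 kept nuclei, 9103 lay in clusters named proximal tubule-like (PT-like) from marker levels. In the uninjured GFP-positive library these held UMIs of all 11 proximal tubule markers, summing to 25586 CPM. UMIs of all 7 podocyte markers were also seen there, summing to 786 CPM, so detection alone does not set a class apart. The clusters were built without the 5 genes and without the other endocytosis genes described here. Median depth of kept nuclei ran from 507 UMIs at 96 h to 1793.5 in the GFP-positive library without injury, and library pairs shared 9 to 20 barcodes.

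In the uninjured kidney, Lrp2, Cubn and Amn were concentrated in the proximal tubule, Dab2 was shared with several other classes, and Clcn5 was not highest there. These levels are from the GFP-negative library, which held 382 PT-like nuclei beside the other kidney classes. Of these, 207 were S3-like and 107 S1-like (late and early segments, described below). In the GFP-positive library without injury 217 of 2293 were S3-like and 967 S1-like. Lrp2 stood at 1419.9 CPM (1341 to 1502) in PT-like nuclei and at 24.6 to 143 CPM in the 11 other classes. Cubn stood at 629.8 CPM in PT-like nuclei and at 4.09 to 81.4 CPM elsewhere, and Amn at 200.2 CPM in PT-like nuclei and at 0 to 52.3 CPM elsewhere. For these genes no interval of another class reached that of the PT-like nuclei.

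Dab2 was also found well outside the proximal tubule in the same library. It stood at 2144 CPM (2047 to 2245) in PT-like nuclei, 1151 CPM (910.1 to 1437) in macrophage and dendritic-like nuclei, 663 CPM (469 to 909.7) in thin limb-like nuclei and 569 CPM (353 to 871) in podocyte-like nuclei. The intervals of the thin limb-like and podocyte-like nuclei overlapped, so their order is not resolved. The PT-like level mixes S1-like nuclei, which lay well above it, and S3-like nuclei, which lay below the macrophage and dendritic-like level (values below). Intercalated-like nuclei had 315 CPM, against 34.5 CPM in thick ascending limb-like nuclei, the lowest class. Set against Lrp2 in the same nuclei, there were 19.5 Dab2 UMIs per Lrp2 UMI (7.32 to 73.4) in macrophage and dendritic-like nuclei, 12.8 (5.63 to 36.1) in intercalated-like nuclei and 1.51 (1.40 to 1.63) in PT-like nuclei. Both ratios outside the proximal tubule lay above that of the PT-like nuclei of the library, and above the 3.47 of its S1-like nuclei.

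Clcn5 was highest in intercalated-like nuclei at 196 CPM (145 to 260.4) and macrophage and dendritic-like nuclei at 192 CPM (102 to 328), whose intervals overlapped. The intercalated-like cluster was led by Slc26a4, which encodes the anion exchanger pendrin of base-secreting intercalated cells, and Slc4a9. Next came thick ascending limb-like nuclei at 90.4 CPM, collecting duct principal-like nuclei at 85.3 CPM and PT-like nuclei at 76.1 CPM (58.7 to 97.0), whose intervals overlapped. Clcn5 stood lower in S3-like than in S1-like nuclei of this library, as given below. The PT-like level, which mixes them, does not place either segment in this order. Endothelium-like nuclei had 28.6 CPM and fibroblast and mural-like nuclei 25.9 CPM.

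**Figure D1:**
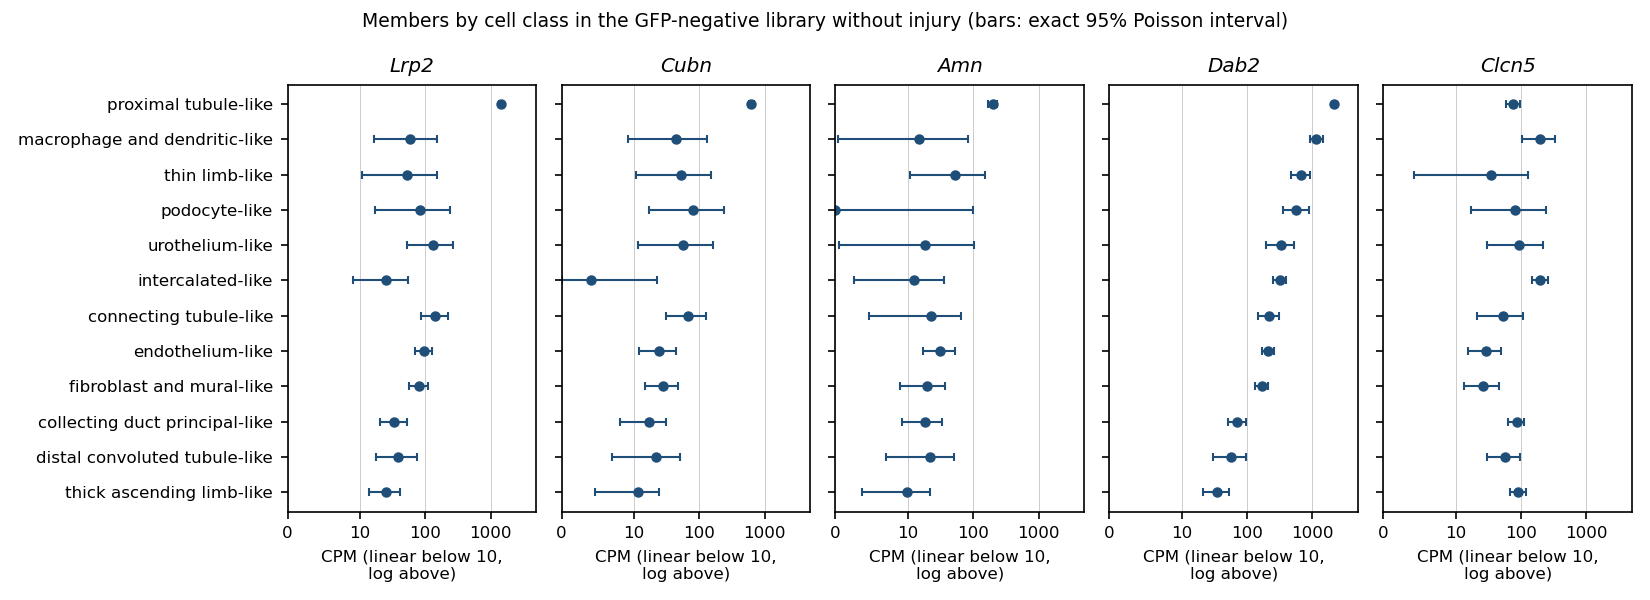
Level of each gene (CPM, linear below 10 and logarithmic above) in 12 cell classes of the GFP-negative library without injury, 1 library, with points for summed nuclei and bars for exact 95% Poisson intervals. Lrp2, Cubn and Amn stand apart in PT-like nuclei, Dab2 reaches 1151 CPM in macrophage and dendritic-like nuclei, and Clcn5 stands at 196 CPM in intercalated-like nuclei.

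GFP-positive nuclei held more proximal tubule and more of 4 of the 5 transcripts. Over all kept nuclei, Lrp2 had 1239 CPM in the GFP-positive and 361 CPM in the GFP-negative library, a ratio of 3.43 (3.24 to 3.63). The ratio was 3.70 for Cubn, 3.48 for Amn, 7.69 for Dab2 and 0.958 (0.828 to 1.11) for Clcn5. So 4 of 5 members were at least 1.5-fold higher in GFP-positive nuclei, where 10.6% of all genes with at least 20 UMIs were. The share of PT-like nuclei was 65.4% with the GFP label and 11.4% without it.

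Nuclei outside the PT-like and injury-led clusters (the latter defined below) carried these transcripts too. This set is not purely non-proximal. It takes in an unnamed deep cluster led by Tenm2 and Slc12a1 that carried thick ascending limb and proximal tubule markers. That cluster held 117 of the 1134 nuclei in the uninjured GFP-positive library and 7 of 2954 in the GFP-negative library. Over the whole set, Lrp2 stood at 628 CPM in the GFP-positive and 58.9 CPM in the GFP-negative library without injury. Dab2 stood there at 2265 and 180.4 CPM in the same order of libraries. In the uninjured GFP-positive library the Dab2 to Lrp2 ratio of this set was 3.61 (3.39 to 3.83), beside 3.87 (3.78 to 3.97) in PT-like nuclei. The part of the mixed cluster in the ratio of the set was not tested. The part of free RNA or of droplets with several nuclei in the GFP-positive levels was not tested. The class levels given above are those of the GFP-negative library.

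Along the proximal tubule, Dab2 and Clcn5 stood lower in the late segment without injury, Lrp2 differed less, and Cubn differed in direction between libraries. S1-like nuclei (clusters with Slc5a2 and Gatm, of the early convoluted segment) were set against S3-like nuclei (a cluster led by Cyp7b1 and Slc22a19, of the late straight segment). Without injury, Dab2 had 1726 CPM (1621 to 1836) in S3-like and 6187 CPM (6069.5 to 6307) in S1-like GFP-positive nuclei, a ratio of 0.279 (0.261 to 0.298). In the GFP-negative library it had 567 CPM in S3-like and 5364 CPM in S1-like nuclei, a ratio of 0.106 (0.0925 to 0.120). The ratio was 0.222 (0.138 to 0.342) at 96 h and 0.345 (0.318 to 0.373) at 28 d, so Dab2 was lower in S3-like nuclei in each of the 4 libraries that held both. The 64 h library had under 20 S3-like nuclei and gave no level.

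Clcn5 shared this pattern, with 39.5 CPM in S3-like and 96.8 CPM in S1-like GFP-positive nuclei without injury, a ratio of 0.408 (0.251 to 0.633). Its ratio was 0.392 (0.215 to 0.727) in the GFP-negative library and 0.472 (0.238 to 0.867) at 28 d, while 2 UMIs in S3-like nuclei at 96 h left it unresolved. Dab2 and Clcn5 were thus the 2 of 5 members at least 1.5-fold lower in S3-like nuclei without injury, where 16.1% of all genes were in the GFP-positive and 18.2% in the GFP-negative library. At 28 d the 2 called were again Dab2 and Clcn5 (background 17.5%). At 96 h the 2 called were Dab2 and Amn, among 4 members with at least 20 UMIs (background 28.0%), and the Amn ratio of 0.659 (0.249 to 1.58) was not resolved from 1.

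Lrp2 had 1347 CPM in S3-like and 1488 CPM in S1-like GFP-positive nuclei, a ratio of 0.906 (0.835 to 0.981). Its ratio was 0.799 (0.690 to 0.927) in the GFP-negative library and 1.04 (0.933 to 1.15) at 28 d. Cubn had 707 CPM in S3-like and 723 CPM in S1-like nuclei (0.979, 0.873 to 1.09). In the GFP-negative library the Cubn ratio was 1.41 (1.10 to 1.82), and at 28 d it was 0.702 (0.584 to 0.839), so its direction differed between libraries. Amn had ratios of 0.743 (0.600 to 0.914), 0.958 (0.651 to 1.44) and 0.750 (0.581 to 0.959) in the GFP-positive library without injury, the GFP-negative library and the 28 d library.

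Dab2 per Lrp2 UMI summarised the contrast. In the GFP-negative library it was 0.459 (0.400 to 0.525) in S3-like and 3.47 (3.01 to 4.01) in S1-like nuclei. In the GFP-positive library without injury it was 1.28 (1.17 to 1.41) in S3-like and 4.16 (3.98 to 4.35) in S1-like nuclei. Dab2 was the member that differed between the sorts within S3-like nuclei, 3.05 times (2.68 to 3.47) higher in GFP-positive nuclei, where 9.82% of all genes were at least 1.5-fold higher. The other members had ratios of 0.771 to 1.09 with intervals that held 1. Thick ascending limb-like nuclei had 375 CPM of Dab2 in the GFP-positive and 34.5 CPM in the GFP-negative library, and the part of free RNA in the S3-like difference was not tested. A cluster led by Slco1a1, an organic anion transporter of the straight segment, and without a clear segment name, had 6758 CPM of Dab2 and 1633 CPM of Lrp2 in the GFP-positive library, so the low Dab2 was not shared by that cluster.

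**Figure D2:**
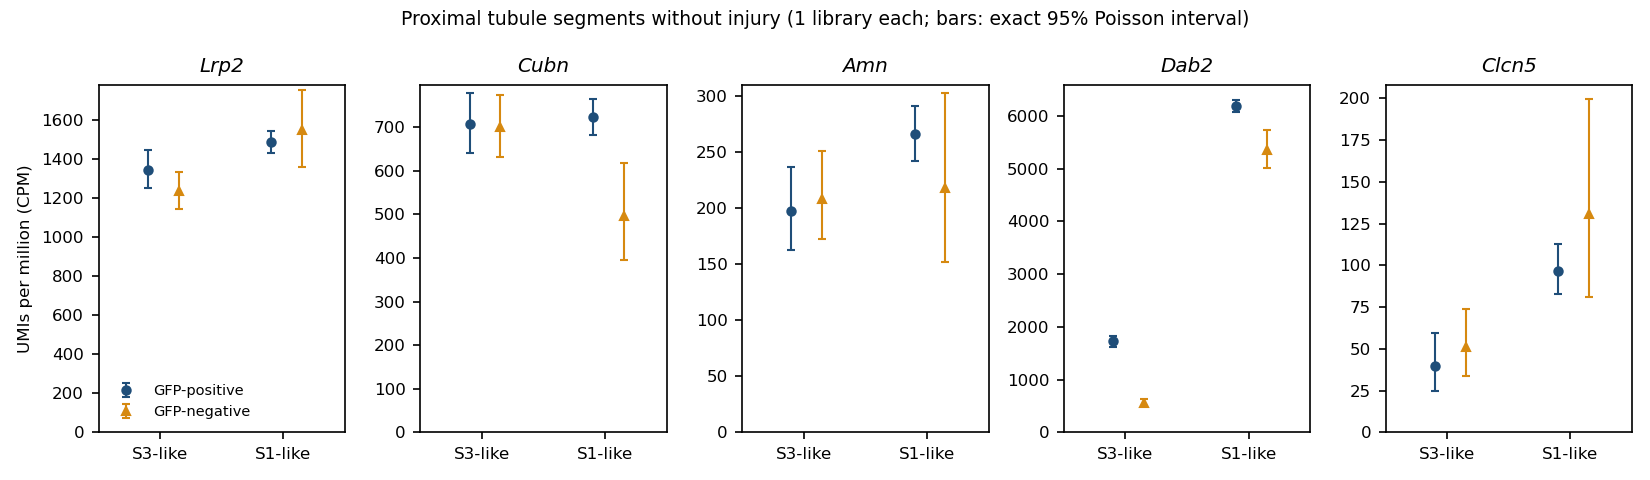
Level of each gene (CPM, linear axes from 0) in S3-like and S1-like nuclei of the GFP-positive (circles) and GFP-negative (triangles) libraries without injury, 1 library each, with exact 95% Poisson intervals. Dab2 stands at 1726 and 567 CPM in S3-like nuclei and at 6187 and 5364 CPM in S1-like nuclei, while Lrp2 stays between 1236 and 1548 CPM.

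After IRI, the 5 genes did not move together in PT-like nuclei. Cubn and Dab2 had a low point at 96 h, Lrp2 was lower at 64 h and 96 h and higher at 28 d, and Amn was higher at every time. Each library of the series is compared with the same GFP-positive library without injury.

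Lrp2 had 1527 CPM (1493 to 1562) without injury, 1275 CPM (1235 to 1317) at 64 h, 1086 CPM (1029.7 to 1144) at 96 h and 1953 CPM (1897 to 2009.9) at 28 d. No interval overlapped another. Over the uninjured level, the ratio was 0.835 at 64 h (interval 0.803 to 0.869), 0.711 at 96 h (interval 0.671 to 0.753) and 1.28 at 28 d (interval 1.23 to 1.33).

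Cubn, the partner receptor, had 725 CPM without injury, 743 CPM at 64 h, 357 CPM at 96 h and 704 CPM at 28 d. The 96 h library stood alone below the others, with a ratio of 0.493 (0.447 to 0.544), while the 64 h ratio of 1.03 (0.972 to 1.08) and the 28 d ratio of 0.972 (0.917 to 1.03) were not resolved from 1.

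Amn, which cubilin needs to reach the surface, had 247 CPM without injury, 324 CPM at 64 h, 393 CPM at 96 h and 439 CPM at 28 d. Its ratios were 1.31 (1.20 to 1.43), 1.59 (1.43 to 1.76) and 1.78 (1.63 to 1.93) at these times. At 96 h cubilin and its partner therefore differed from the uninjured library in opposite directions.

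Dab2 had 5915 CPM without injury, 5639.9 CPM at 64 h, 2929 CPM at 96 h and 6753 CPM at 28 d. The ratios were 0.953 (0.935 to 0.972), 0.495 (0.478 to 0.512) and 1.14 (1.12 to 1.16). Clcn5 had 71.2 CPM without injury, 101 CPM at 64 h, 89.9 CPM at 96 h and 86.9 CPM at 28 d. Its ratios of 1.42 (1.21 to 1.66), 1.26 (1.01 to 1.56) and 1.22 (1.02 to 1.45) rest on 116 to 346 UMIs per library. The direction differed with the nuclei used. In S1-like nuclei the 64 h ratio was 0.909, and with S1-like nuclei of the GFP-negative library below the line it was 0.674 at 64 h and 0.819 at 28 d.

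At 64 h, 0 of 5 members were at least 1.5-fold lower and 0 at least 1.5-fold higher, where 13.4% and 24.7% of all genes were. At 96 h the 2 lower members were Cubn and Dab2 (background 15.3%), and the 1 higher member was Amn (background 37.2%). At 28 d 0 members were lower (background 10.2%) and 1, Amn, was higher (background 14.5%). The median log2 fold of the members, with 1 CPM added to both levels, was 0.04 at 64 h, -0.49 at 96 h and 0.28 at 28 d, beside 0.16, 0.28 and 0.06 over all genes. Scaling by trimmed mean of M-values (TMM) put the median of all genes at -0.01, -0.03 and -0.02 and that of the members at -0.14, -0.81 and 0.20. Under it the Amn ratio at 96 h was 1.27, the Clcn5 ratio at 96 h was 1.01, and the Cubn ratio at 64 h was 0.904, on the other side of 1. Without the Cyp2a5-led and Fgg-led clusters described below, 1 member was at least 1.5-fold lower at 96 h, and with S1-like nuclei set against those of the GFP-negative library 0 were, both choices made after the data were seen.

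**Figure D3:**
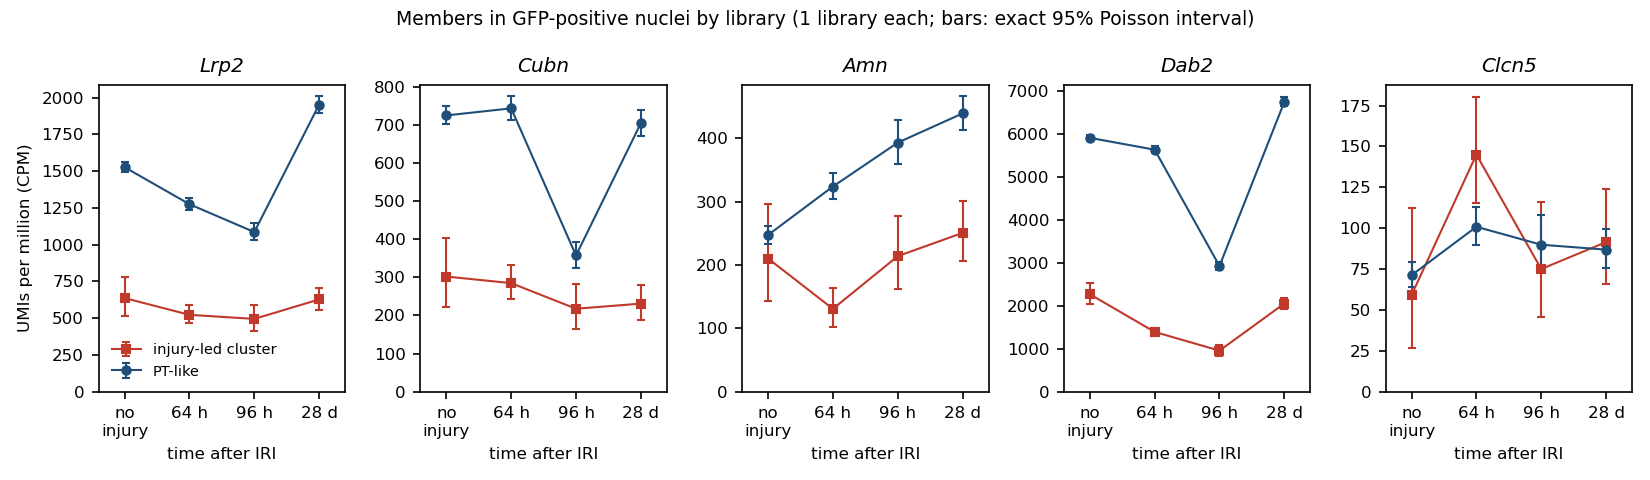
Level of each gene (CPM, linear axes from 0) in PT-like nuclei (circles) and in the injury-led cluster (squares) of the 4 GFP-positive libraries, 1 library each, with exact 95% Poisson intervals. At 96 h Cubn stands at 357 CPM and Dab2 at 2929 CPM in PT-like nuclei, and Amn at 393 CPM.

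The shares of nuclei with a UMI gave the same picture at equal depth. After each nucleus was thinned to 400 UMIs, Dab2 was seen in 84.6% of uninjured PT-like nuclei, in 83.9% at 64 h, in 61.2% at 96 h and in 88.4% at 28 d. Unthinned, the shares were 97.9%, 96.8%, 68.0% and 96.3%. Cubn was seen in 24.8%, 25.0%, 13.6% and 23.7% of thinned nuclei at the same stages. Unthinned, its shares were 70.4%, 59.4%, 17.2% and 47.7%. At 96 h 633 of the 2330 PT-like nuclei were too shallow to be thinned, and at 28 d 44 of 2163. Thick ascending limb-like nuclei of the GFP-positive library without injury should lack both genes. Their thinned shares were 7.88% for Dab2 and 1.82% for Cubn. Median depth was 1930 UMIs in PT-like and 1098 in thick ascending limb-like nuclei. Other non-proximal classes of that library carried more. Thinned, none of the 5 genes was seen in 19.6% of 46 endothelium-like, 39.1% of 46 intercalated-like and 83.0% of thick ascending limb-like nuclei. In the GFP-negative library these shares were 88.7%, 78.1% and 94.0%.

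Gene length moved with the 96 h contrast. In PT-like nuclei at 96 h, genes under 10 kb had a median log2 fold of 0.65, genes of 10 to 50 kb one of 0.28, genes of 50 to 100 kb one of 0.02 and genes of 100 kb and over one of 0.10. Within S1-like nuclei at 96 h the medians of these bins were 0.55, 0.17, -0.20 and -0.23. In PT-like nuclei the shortest and longest bins had medians of 0.10 and 0.06 at 28 d and of 0.17 and 0.20 at 64 h. Amn, the only short member, had a log2 fold of 0.67 at 96 h, close to the median of short genes, and of 0.83 at 28 d. Lrp2, Cubn, Dab2 and Clcn5 all exceed 100 kb. The part of gene length in these ratios was not tested. The 11 proximal tubule markers, which are not members, were also lower at 96 h, and their sum was 25586 CPM without injury, 15993 CPM at 64 h, 14811 CPM at 96 h and 23026 CPM at 28 d.

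PT-like nuclei also spread differently over clusters after injury, and part of the 96 h contrast did not remain within clusters. A cluster led by Fgg, the gamma chain of fibrinogen, held 1996 of 2330 PT-like nuclei at 96 h and 28 of 2293 without injury. A cluster led by Cyp2a5 held 1010 of 1935 at 64 h and 43 without injury. The injury gene list (12 genes, among them Havcr1, Lcn2 and Krt20) summed to 140.4 CPM in uninjured PT-like nuclei, then 1036 CPM at 64 h, 1387 CPM at 96 h and 244 CPM at 28 d, with Lcn2 and Sox9 at 0 without injury. A cluster that comes mostly from 1 library may reflect that library.

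Within S1-like nuclei, Lrp2 had 1458 CPM at 96 h and 1488 CPM without injury, a ratio of 0.980 (0.759 to 1.25). Its ratio was 1.10 (0.790 to 1.48) in S3-like nuclei, 1.00 (0.730 to 1.42) in the Fgg-led cluster and 1.04 (0.832 to 1.29) in a cluster led by Gm26870 and the histidine decarboxylase gene Hdc. The lower Lrp2 of all PT-like nuclei at 96 h was thus not resolved inside these clusters, and in the Cyp2a5-led cluster the ratio was 0.767 (0.541 to 1.07).

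Dab2 was lower within each of them. Its 96 h ratio was 0.586 (interval below 1) in S1-like nuclei, 0.466 (0.297 to 0.698) in S3-like nuclei, 0.791 (0.668 to 0.945) in the Fgg-led cluster, 0.585 (0.518 to 0.658) in the Gm26870-led cluster and 0.426 (0.343 to 0.525) in the Cyp2a5-led cluster. Cubn had ratios of 0.683 (0.431 to 1.03) in S1-like nuclei and 0.697 (0.435 to 1.19) in the Fgg-led cluster, both with intervals that held 1, and 1.02 in the Gm26870-led cluster. Its ratio was 0.569 (0.292 to 1.01) in S3-like nuclei on 12 UMIs at 96 h, and 0.558 (0.295 to 0.994) in the Cyp2a5-led cluster on 15. The S1-like sum at 96 h held 85 nuclei with 23 Cubn UMIs and 68 Lrp2 UMIs. In it 1 of 5 members, Dab2, was at least 1.5-fold lower (background 32.6%). Another 2, Amn and Clcn5, were at least 1.5-fold higher (background 33.1%).

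At 28 d Lrp2, Amn and Dab2 stood above the uninjured library within both segments. In S1-like nuclei the ratio was 1.32 (1.23 to 1.42) for Lrp2, 1.23 (1.11 to 1.37) for Cubn, 1.69 (1.45 to 1.98) for Amn and 1.28 (1.23 to 1.32) for Dab2. In S3-like nuclei, Dab2 had 2725 CPM at 28 d and 1726 CPM without injury (1.58, 1.43 to 1.74), and Lrp2 had a ratio of 1.52 (1.35 to 1.69). There, 3 of 5 members (Lrp2, Amn and Dab2) were at least 1.5-fold higher, where 18.5% of all genes were, and 1 member (Amn) was in S1-like nuclei (background 14.9%). Cubn in S3-like nuclei had a ratio of 0.884 (0.732 to 1.06). Outside PT-like and injury-led nuclei the 28 d ratios were 1.28 for Lrp2, 1.93 for Amn and 1.17 for Dab2, and the part of free RNA in the segment values was not tested.

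**Figure D4:**
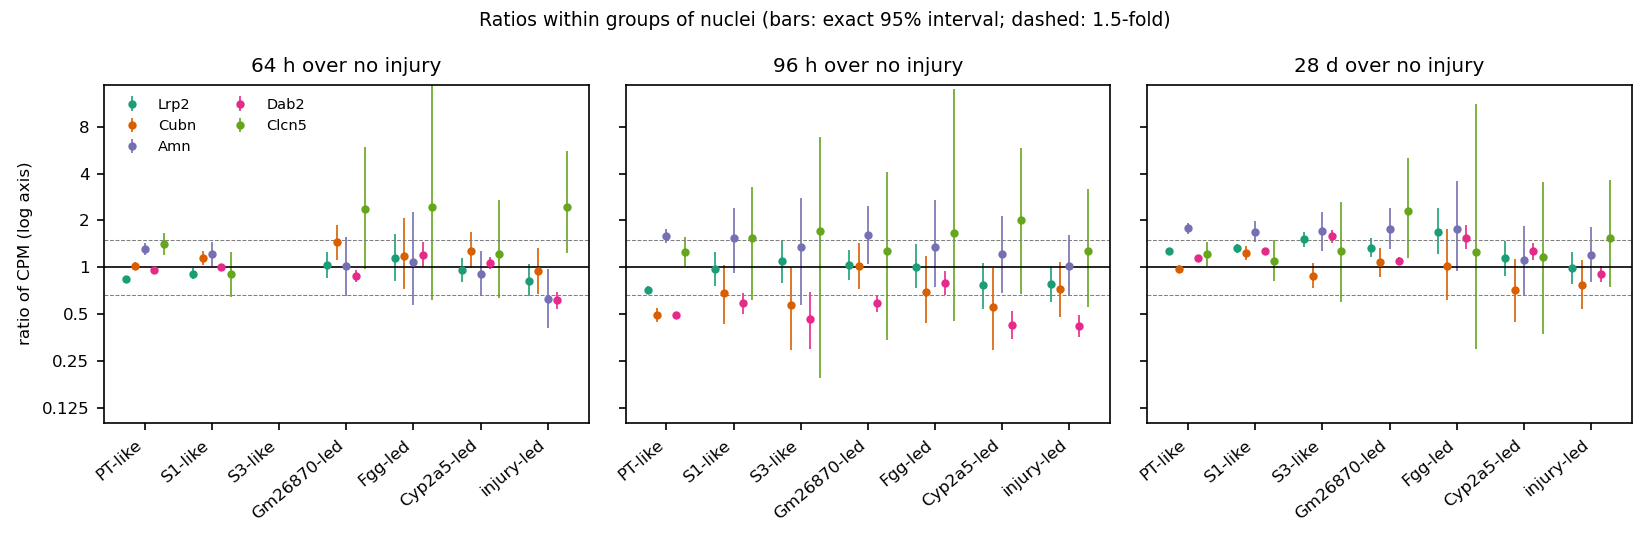
Ratio of CPM to the GFP-positive library without injury (log axis) for each gene within PT-like nuclei, their clusters and the injury-led cluster at 64 h, 96 h and 28 d, with exact 95% intervals and dashed lines at 1.5-fold in both directions. At 96 h Dab2 lies below 1 in all 7 groups of nuclei, from 0.421 in the injury-led cluster to 0.791 in the Fgg-led cluster, while Lrp2 lies at 0.980 in S1-like nuclei.

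In a cluster led by injury genes, Lrp2, Cubn and Dab2 stood below PT-like nuclei in each of the 4 GFP-positive libraries, and Amn did so in the 3 IRI libraries. Clcn5 differed in direction between libraries. The GFP-negative library held 2 nuclei of it and gave no level. The cluster was led by Gm17268, Vcam1 and Havcr1, with Csf1, Cd44 and Krt20 among its 10 leading genes, and held 81 nuclei of the uninjured GFP-positive library, 243 of the 64 h library, 272 of the 96 h library and 325 of the 28 d library. Vcam1 is an adhesion molecule and Havcr1 encodes the injury marker KIM-1. The cluster held UMIs of all 11 proximal tubule markers, which summed to 12460 CPM there without injury. It also held UMIs of all 6 thick ascending limb markers in that library, summing to 276 CPM, so detection alone does not name it. Its most similar class was parietal epithelium, and it stays unnamed (injury-led below). Havcr1 stood there at 144 CPM in the uninjured library and then at 354 CPM at 64 h, 476 CPM at 96 h and 146 CPM at 28 d.

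Dab2 had 2271 CPM in injury-led and 5915 CPM in PT-like nuclei without injury. It had 1393 and 5639.9 CPM in these nuclei at 64 h, 957 and 2929 CPM at 96 h, and 2054 and 6753 CPM at 28 d. Dividing injury-led by PT-like levels gave 0.384 without injury (interval 0.344 to 0.427), 0.247 at 64 h (interval 0.230 to 0.265), 0.327 at 96 h (interval 0.287 to 0.371) and 0.304 at 28 d (interval 0.285 to 0.325). No Dab2 level of an injury-led sum reached that of the PT-like sum of its library.

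Lrp2 had 637, 523, 495 and 627 CPM in injury-led nuclei, in the order uninjured, 64 h, 96 h and 28 d. Its ratios over PT-like nuclei ran from 0.321 (0.284 to 0.362) at 28 d to 0.456 (0.379 to 0.545) at 96 h, and those of Cubn from 0.328 (0.267 to 0.399) at 28 d to 0.609 (0.455 to 0.801) at 96 h. Both receptors were lower in injury-led nuclei in all 4 libraries.

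Amn was lower in injury-led nuclei after IRI, with a ratio of 0.404 at 64 h (interval 0.314 to 0.513), 0.544 at 96 h (interval 0.406 to 0.717) and 0.571 at 28 d (interval 0.467 to 0.692). Without injury it was 0.850 (0.579 to 1.21) on 32 UMIs, and the difference between these ratios was not tested. Clcn5 had a ratio of 0.830 without injury (interval 0.376 to 1.59) and 1.44 at 64 h (interval 1.11 to 1.84). It had 0.835 at 96 h (interval 0.492 to 1.35) and 1.05 at 28 d (interval 0.737 to 1.47). It was thus the member that never reached 1.5-fold lower against PT-like nuclei. Against S1-like nuclei, all 5 members, Clcn5 among them, were at least 1.5-fold lower at 96 h (background 18.9%). The S1-like sum at 96 h held 85 nuclei, so the Clcn5 call there rests on few UMIs. Lower counts against S1-like nuclei were 4 of 5 without injury (27.1%), at 64 h (18.4%) and at 28 d (18.8%). At 64 h the other member, Clcn5, was at least 1.5-fold higher in injury-led nuclei (background 28.5%).

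In all, 3 of 5 members were at least 1.5-fold lower in injury-led nuclei without injury (background 30.7%), and 4 of 5 at 64 h (18.8%), at 96 h (19.3%) and at 28 d (22.5%). The median log2 fold of the members was -1.26, -1.30, -0.87 and -1.60 at these stages, beside -0.05, 0.10, -0.01 and -0.03 over all genes. The 11 proximal tubule markers were lower too, summing to 4419 CPM in injury-led and 15993 CPM in PT-like nuclei at 64 h, and to 9261 and 23026 CPM in these nuclei at 28 d. The S3 list differed in direction between stages. Its 5 genes summed to 1237 CPM in injury-led and 810.1 CPM in PT-like nuclei at 64 h, and to 2044 and 1174 CPM in these nuclei at 96 h. The sums do not hold for each gene. Slc7a13 stood at 181 CPM in injury-led and 329 CPM in PT-like nuclei at 64 h, and at 165 and 190 CPM at 96 h. Cyp7b1 stood at 8.95 and 5.53 CPM at 64 h, and at 75.0 and 28.7 CPM at 96 h. Without injury the S3 list was lower in injury-led nuclei, at 499 CPM beside 2205 CPM, and likewise at 28 d, at 673 CPM beside 2045 CPM. The 3 parietal epithelium genes summed to 255 to 649.9 CPM in injury-led nuclei and 15.1 to 48.8 CPM in PT-like nuclei of the 4 libraries. The part of segment and cell type in the members' ratios was not tested.

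Against S3-like nuclei, Lrp2 and Cubn stood lower in injury-led nuclei, and Dab2 differed in direction between libraries. Injury-led over S3-like nuclei, Dab2 had a ratio of 1.32 (1.16 to 1.49) without injury, 1.19 at 96 h (interval 0.781 to 1.89) and 0.754 at 28 d (interval 0.683 to 0.833). Lrp2 had ratios of 0.473 (0.379 to 0.584) without injury, 0.335 at 96 h (interval 0.237 to 0.483) and 0.307 at 28 d (interval 0.265 to 0.356). Cubn had ratios of 0.427 (0.308 to 0.580) without injury, 0.540 at 96 h (interval 0.287 to 1.11, which held 1) and 0.370 at 28 d (interval 0.286 to 0.475). Lrp2 and Cubn were the 2 of 5 members at least 1.5-fold lower against S3-like nuclei without injury (background 31.1%), at 96 h (22.0%) and at 28 d (25.7%). The median log2 fold of the members was 0.09, -0.33 and -0.43, beside -0.12, 0.11 and -0.07 over all genes. The ratio of 28 d over 96 h was 2.15 (1.87 to 2.48) for Dab2 and 1.27 (1.03 to 1.57) for Lrp2 within injury-led nuclei, and 2.31 (2.23 to 2.39) and 1.80 (1.69 to 1.91) within PT-like nuclei.

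At a depth of 400 UMIs, none of the 5 genes was seen in 42.0% of uninjured injury-led nuclei, in 49.0% at 64 h, in 57.9% at 96 h and in 43.6% at 28 d. In PT-like nuclei these shares were 6.50%, 7.18%, 21.9% and 3.92%, and in thick ascending limb-like nuclei of the GFP-positive library without injury the share was 83.0%. S3-like nuclei of the GFP-positive libraries had a share of 23.5% without injury and 12.5% at 28 d, and 14 of 40 nuclei at 96 h. In the GFP-negative library the S3-like share was 40.3%. Intercalated-like nuclei of the GFP-positive library without injury had 39.1%. The injury-led shares thus lay between those of PT-like and thick ascending limb-like nuclei, but intermediate shares were not particular to injury-led nuclei.

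The levels of 4 members followed each other over classes and libraries. Over 42 sums of classes by library and 11756 genes with at least 100 UMIs, the gene most like Lrp2 in log2(CPM + 10) was Cubn (Pearson r 0.958), followed by the glycine N-acyltransferase gene Glyat (0.933) and the phosphate transporter gene Slc34a1 (0.931). Cubn was followed by Lrp2, Pter (0.948) and Slc34a1 (0.937), and Dab2 by Slc34a1 (0.940), the sulfate transporter gene Slc13a1 (0.924) and Cubn (0.920). Amn was most like Glyat (0.910), Lrp2 (0.894) and the scaffold gene Pdzk1 (0.891). Clcn5 had r between -0.109 and 0.003 with the other members, and its nearest genes were Smek2 (0.655), Pde7a (0.644) and Ap1s3 (0.637). The sums share libraries and depth, and r is a description.

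Downstream of the receptors, most listed genes of lysosomal degradation stood higher after IRI, at 96 h beside a lower Cubn. The lists below were compared in PT-like nuclei with the uninjured GFP-positive library. Of all genes, 24.7%, 37.2% and 14.5% were at least 1.5-fold higher at 64 h, 96 h and 28 d. At least 1.5-fold lower were 13.4%, 15.3% and 10.2%, and these shares apply to every list. Of 9 genes of lysosomal degradation, 6 were at least 1.5-fold higher at 64 h, 8 at 96 h and 5 at 28 d, and 0 were lower. The list's median log2 fold was 0.71, 1.17 and 0.64. Ctsd, the aspartic protease cathepsin D, had 76.6 CPM without injury, 224 CPM at 64 h, 374 CPM at 96 h and 136 CPM at 28 d. Its ratios were 2.93 (2.57 to 3.33), 4.89 (4.26 to 5.61) and 1.77 (1.52 to 2.06). The cysteine protease genes Ctsl and Ctsb had 64 h ratios of 3.84 and 2.66 and 96 h ratios of 2.94 and 3.09. Lamp1, a lysosomal membrane protein, had 2.05 at 64 h and 2.47 at 96 h.

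Of 12 clathrin coat and budding genes, 5 were at least 1.5-fold higher at 64 h, 7 at 96 h and 1 at 28 d, and 1 (Eps15, 0.609) was lower at 96 h. The AP-2 subunit genes Ap2m1, Ap2s1 and Ap2a2, whose complex recruits clathrin to cargo, had ratios of 2.09, 2.34 and 1.65 at 64 h and 3.58, 2.70 and 1.64 at 96 h. The clathrin light chain gene Clta had 1.84 at 64 h and 1.87 at 96 h. At 96 h several core coat genes thus stood higher in the nuclei in which Dab2, the adaptor of megalin, stood lower.

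Among 7 receptor partners and cargo receptors, 2, 3 and 3 were higher and 1, 0 and 0 lower at 64 h, 96 h and 28 d. Of all genes, 24.7%, 37.2% and 14.5% were higher at these times. Cd320, the transcobalamin receptor, had ratios of 2.63 and 3.14 at 64 h and 96 h, and Gipc1, which binds the megalin tail, of 1.70 and 1.51. Lrpap1, the chaperone of megalin, had 1.04, 1.36 and 1.25, and Fcgrt, the neonatal Fc receptor that salvages albumin, had 0.435 (0.303 to 0.611) at 64 h and 1.54 (1.21 to 1.95) at 28 d.

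Of 10 endosome sorting and recycling genes, 9 had at least 20 UMIs, and 2, 2 and 0 were higher and 1, 2 and 0 lower at the 3 times. Ehd1, a recycling ATPase, had ratios of 1.62 and 2.83 at 64 h and 96 h, and Ocrl, a lipid phosphatase mutated in human Lowe syndrome, 0.647 and 0.522. Of 11 acidification genes, 4, 4 and 3 were higher and 1, 2 and 1 lower. At 96 h 37.2% of all genes were higher, and neither the sorting nor the acidification list exceeded that share. Ostm1, a subunit of the lysosomal exchanger ClC-7, had 1.56 and 1.70, and Clcn3, a relative of Clcn5, had 0.545 (0.460 to 0.642) at 96 h. Of 9 other LDL receptor family genes, 2, 5 and 2 were higher and 0, 3 and 2 lower. Lrp1 had 2.80 at 64 h and 5.44 at 96 h, on a level of 3.71 CPM without injury, and Lrp8 had 2.76 and 3.10.

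The 93 ribosomal protein genes took 0.545% of PT-like UMIs in the uninjured library, 1.10% of UMIs at 64 h, 1.34% of UMIs at 96 h and 0.502% of UMIs at 28 d. The part of RNA make-up and of gene length in the list values was not tested. Fcgrt, Lrpap1, Eps15 and Clcn3 were picked out after their values were seen.

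**Figure D5:**
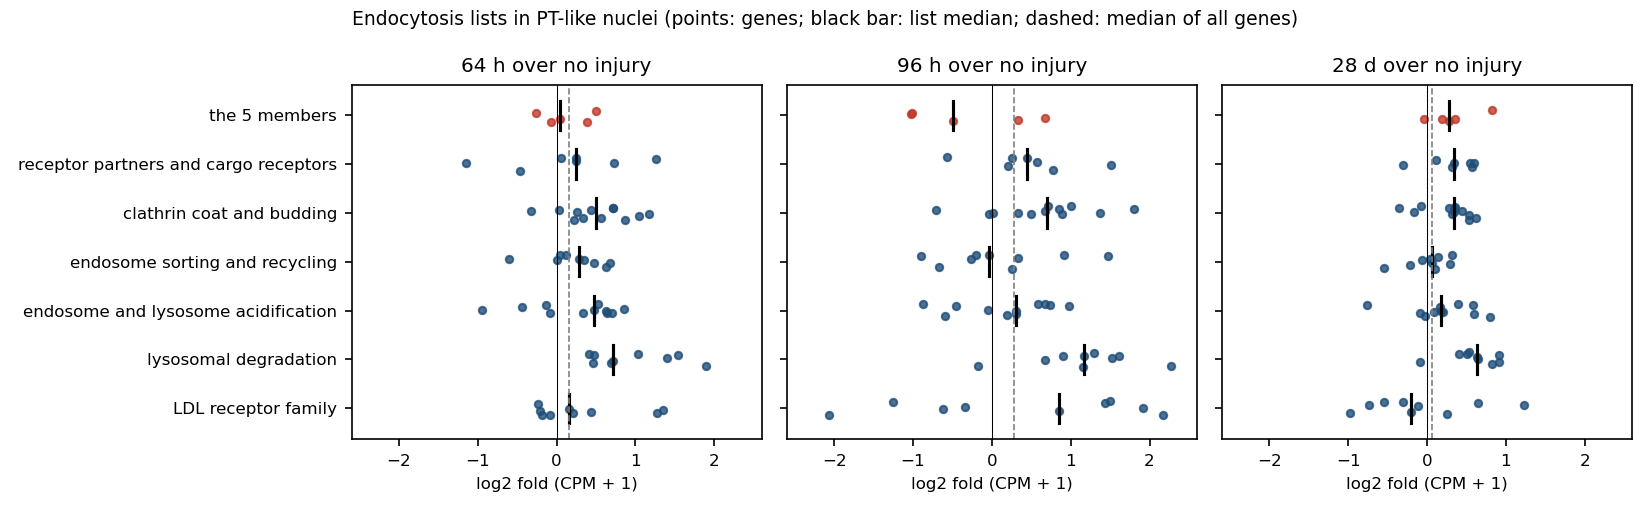
Log2 fold (1 CPM added) of each gene in PT-like nuclei at 64 h, 96 h and 28 d over no injury, for the 5 members and 6 lists, with black bars at list medians and a dashed line at the median of all genes. The lysosomal degradation list has medians of 0.71, 1.17 and 0.64, and the members medians of 0.04, -0.49 and 0.28.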

How the data were processed

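The deposited values are UMI counts per gene and nucleus in 5 matrices of 27998 genes, made by the authors with bcl2fastq 2.17, Cell Ranger 2.1 and STAR 2.5.1b on mm10, per the submitters' processing notes, and aligned to a pre-mRNA reference, per the design text. Each matrix held 3012 to 3508 barcodes and 1922002 to 7153971 UMIs, and the 96 h matrix held the fewest UMIs. Among PT-like nuclei the GFP-negative library held the fewest, with 854280 UMIs against 1290331 at 96 h. The use of strand in counting is not given in the sources used here.

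Nuclei below 200 genes or above 10% mitochondrial UMIs were dropped. That removed 306 nuclei at 96 h and 1 GFP-negative nucleus. The others were clustered (scanpy 1.11.5, igraph 0.11.9, Leiden, resolution 1.0, 2000 variable genes, 30 components, 15 neighbours) without the 5 genes and the endocytosis lists. Clusters were named from marker lists, and names could differ from those of the study. No doublet caller was run; a cluster that was deep and carried markers of 2 classes stayed unnamed. The members and lists were chosen with earlier results of these data known.

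UMIs were summed per class and library, for classes of at least 20 nuclei, and scaled to CPM. Intervals are exact 95% Poisson, conditional Poisson for ratios, and Clopper-Pearson for shares (scipy 1.17.1). With 1 library per group there is no test. A gene counts as at least 1.5-fold different by its CPM ratio, among genes with at least 20 UMIs over both sums. Log2 folds add 1 CPM. The code was tested on simulated data. Alternatives were other resolutions (0.5 and 2.0), the members among the clustering genes, TMM factors (edgeR 4.0.16), stricter filters, other sums of nuclei, thinning to 400 UMIs and 10 CPM as pseudocount. From each list at most 4 genes were named by rule, those past 1.5-fold in 1 direction at both 64 h and 96 h with intervals that exclude 1, largest summed log2 fold first.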

Additional observations from a re-analysis of the deposited data

Results flagged for a closer look

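Amn differed in direction between 2 groups of nuclei at 64 h. Its ratio to the GFP-positive library without injury was 1.31 (1.20 to 1.43) in PT-like nuclei and 0.622 (0.405 to 0.974) in the injury-led cluster. The levels were 131 CPM at 64 h and 210.1 CPM without injury in the injury-led cluster, on 73 and 32 UMIs. Each group of nuclei had 1 library per condition, and the difference was not tested.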

How the results depend on the processing

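No paired analysis was possible because each group had 1 library, and for the same reason no replicate could be left out. Lower calls at 64 h and 28 d stayed at 0 under every setting listed under the processing and 3 more chosen after the data were seen. At 96 h the count of 2 lower members was 2 or 3 under the listed settings. Under those chosen afterwards it was 1 in S1-like nuclei only, 1 without the Cyp2a5-led and Fgg-led clusters, and 0 for S1-like nuclei against the GFP-negative library. The ratio at 96 h spanned 0.397 to 0.496 for Dab2, 0.395 to 0.514 for Cubn and 0.570 to 0.731 for Lrp2 over 8 of the listed settings, and reached 0.676, 0.992 and 0.980 with the 3 added settings. Clcn5 spanned 1.25 to 1.53 at 64 h over the listed settings and went down to 0.674 with the added ones. Cubn at 28 d, 0.972 as reported, was 1.23 in S1-like nuclei and 1.79 against the GFP-negative library, and Dab2 at 64 h, 0.953 as reported, was 1.01 and 1.17 there. Amn spanned 1.27 to 1.70 at 96 h and 1.66 to 1.90 at 28 d over the listed settings.

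The median log2 fold of the members at 64 h was -0.14 with TMM, -0.11 over all nuclei, -0.09 with injury-led nuclei added, and 0.22 both without the Cyp2a5-led and Fgg-led clusters and for S1-like nuclei against the GFP-negative library. At 96 h it was -0.59 at resolution 0.5, -0.60 with the members among the clustering genes, -0.81 with TMM, -0.61 with injury-led nuclei, -0.03 in S1-like nuclei, -0.04 without the 2 clusters and -0.01 against the GFP-negative library. At 28 d it was 0.56 against the GFP-negative library. The cause of these shifts was not tested. With at least 1 UMI in place of 20, the background of lower genes was 21.9%, 24.0% and 19.6% at 64 h, 96 h and 28 d, and that of higher genes at 28 d was 24.0%. The 96 h library is the shallowest, and Clcn5 is the member with the fewest UMIs.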

Other observations

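Outside PT-like and injury-led nuclei, the GFP-positive libraries also carried UMIs of the 5 genes. Lrp2 stood there at 628 CPM without injury, 202 CPM at 64 h, 177 CPM at 96 h and 807 CPM at 28 d, and Dab2 at 2265, 905, 401 and 2659 CPM. These nuclei differed in make-up, since an unnamed cluster led by Clu and Lcn2 held 362 of 600 of them at 96 h and 1 of 1134 without injury. The deep cluster led by Tenm2 and Slc12a1, which carried proximal tubule markers, is also in this set. It made up 117 of 1134 nuclei in the uninjured library. After IRI its part was 20 of 834 (64 h), 5 of 600 (96 h) and 90 of 811 (28 d). The part of either cluster in the levels of the set was not tested. Over the whole set, the ratios of 96 h to no injury were 0.282 for Lrp2, 0.163 for Cubn, 0.177 for Dab2 and 1.17 for Amn.

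The cluster led by Clu and Lcn2, which scored between thick ascending limb and distal convoluted tubule, held 273 nuclei at 64 h, 362 at 96 h and 107 at 28 d, and 1 without injury in the GFP-positive library. Clcn5 stood there at 105 CPM (71.1 to 149) at 64 h, 67.1 CPM (33.5 to 120.1) at 96 h and 37.3 CPM (7.69 to 109) at 28 d. Lrp2 stood at 67.5, 85.4 and 273 CPM at these times.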
